A study of Mus musculus with 6 samples.

Results

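The regions described here are accessible sites that lie inside protein-coding genes a short way downstream of the transcription start site (TSS). A region was taken when the deposited table assigned it to a protein-coding gene, placed its centre more than 1000 bp from the TSS and gave its whole length as overlapping the gene body. Of the 63430 regions of the table, 2596 in 2273 genes met this rule, and a signal value played no part in it. All 2596 lay downstream of the TSS, at 1001 to 5811 bp with a median of 2485 bp. They are called intragenic regions below, and the 10032 regions of protein-coding genes centred within 1000 bp of the TSS are called promoters.

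The assay was ATAC-seq, which reads open DNA from the places where Tn5 transposase can insert adapters. The cells were NIH/3T3, a line of mouse embryonic fibroblasts, and in every sample they carried a knock-in of CRISPR-Cas13d, an enzyme that cuts RNA at sites given by a guide. The control samples received a guide specific for GFP and the others a guide specific for Actg1, the gene of cytoplasmic gamma-actin, with 3 libraries of 25000 cells in each group, and the stated question concerned the role of mRNA degradation in transcriptional adaptation. The labels do not give the promoter that drives Cas13d, the number of clones behind the line or the time after transfection. They also do not say whether the libraries of a group came from separate cultures. The p-values therefore reflect only how these samples spread, which may be technical. In the fits below that spread is largely shared among regions of like signal, so an SE says little about the libraries of a single region.

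Open DNA within a gene can be an enhancer, an alternative promoter that starts a shorter transcript, or the outer part of a wide promoter. Enhancers in introns near the start bind transcription factors that differ between cell states, whereas promoters of widely used genes are rich in CpG and open in most cells. Fibroblast genes such as the collagens are known for regulatory elements in their first introns.

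The signal of a region is a read count normalized by the authors. Estimated reads in regions ranged from 5676057 to 9526762 per library, and the first 2 GFP guide libraries, whose difference was within sampling noise (chi-square per region 1.005, p = 0.200), were counted as 1 sample. The control group therefore had n = 2 and the Actg1 guide group n = 3. Of 19 fibroblast marker genes, 13 had a promoter region, with a median signal of 336, against 15 of 77 markers of other cell types, with a median of 49.2. Summed over their regions, the fibroblast markers gave 4794 to 4854 with the GFP guide and 4364 to 4471 with the Actg1 guide, and the other markers gave 1972 to 2046 and 1796 to 1846. Both lists were lower with the Actg1 guide in all 3 libraries, and the part of cell composition in the results was not tested. In bulk samples a change in some of the cells and a smaller change in all of them cannot be told apart.

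To show what kind of DNA these regions hold, the start sites of RefSeq (build GRCm38.p6, the NCBI name of mm10) were placed on them. In 315 of the 2596 regions lay a RefSeq start of the same gene, in 37 lay only a start of another gene, and in 2244 lay none. Printed here are the 200 bases before a start for 4 intragenic regions, because their signal is described below, and for the promoters of Zfp119b and Col1a2, whose change differed from that of the intragenic region of the gene. Capitals mark each match, on either strand, to AP-1 (TGANTCA), TEAD (GGAATG), RUNX (TGTGGT), SP/KLF (GGGCGG), NF-Y (CCAAT), a MYC-type E-box (CACGTG), an NF1 motif (TTGGC) or ETS (CCGGAA), where NF-Y and NF1 matches can overlap. Sequences run 5′ to 3′ on the strand of the gene.
Zfp119b, start in the promoter region, chr17:55949501-55949700, minus strand: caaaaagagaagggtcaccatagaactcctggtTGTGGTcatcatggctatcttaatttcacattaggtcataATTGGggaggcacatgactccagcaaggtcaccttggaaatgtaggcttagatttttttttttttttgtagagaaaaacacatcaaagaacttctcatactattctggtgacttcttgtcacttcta
Zfp119b, start in the intragenic region, chr17:55945260-55945459, minus strand: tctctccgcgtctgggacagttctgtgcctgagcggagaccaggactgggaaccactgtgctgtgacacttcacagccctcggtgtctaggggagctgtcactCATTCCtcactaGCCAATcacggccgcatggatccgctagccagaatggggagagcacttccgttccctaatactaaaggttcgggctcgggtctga
Add3, start in the intragenic region, chr19:53142556-53142755, plus strand: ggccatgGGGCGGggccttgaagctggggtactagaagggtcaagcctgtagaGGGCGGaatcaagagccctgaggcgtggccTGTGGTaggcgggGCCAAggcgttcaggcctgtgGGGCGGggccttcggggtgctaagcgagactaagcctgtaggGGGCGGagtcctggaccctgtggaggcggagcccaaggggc
Ing1, start in the intragenic region, chr8:11558210-11558409, plus strand: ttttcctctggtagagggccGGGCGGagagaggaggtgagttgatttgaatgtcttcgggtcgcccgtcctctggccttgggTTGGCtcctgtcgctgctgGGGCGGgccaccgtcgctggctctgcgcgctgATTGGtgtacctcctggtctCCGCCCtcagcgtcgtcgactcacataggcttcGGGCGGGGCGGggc
Rps6ka5, start in the intragenic region, chr12:100725121-100725320, minus strand: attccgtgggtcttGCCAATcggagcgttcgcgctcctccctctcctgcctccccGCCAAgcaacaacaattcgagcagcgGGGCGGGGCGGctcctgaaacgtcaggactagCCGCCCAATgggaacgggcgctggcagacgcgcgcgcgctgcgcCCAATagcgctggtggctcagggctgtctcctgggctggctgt
Col1a2, start in the promoter region, chr6:4505418-4505617, plus strand: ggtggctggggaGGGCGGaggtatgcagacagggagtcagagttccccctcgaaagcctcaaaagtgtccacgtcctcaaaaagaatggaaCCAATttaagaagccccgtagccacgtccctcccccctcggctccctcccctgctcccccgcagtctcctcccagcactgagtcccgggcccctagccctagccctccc

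SP/KLF matches numbered 4 in Add3, 5 in Ing1, 3 in Rps6ka5 and 1 in the Col1a2 promoter, and none lay before either start of Zfp119b. Of these 200 bases, 68.0% were G or C in Add3, 66.0% in Ing1 and 67.5% in Rps6ka5, against 38.0% at the promoter start of Zfp119b and 58.0% at its intragenic start. Among all 32817 RefSeq starts, 31.0% held an SP/KLF match in the 200 bases before them, and among the 380 starts inside intragenic regions 65.8% did. The corresponding shares were 29.3% and 28.4% for NF-Y, 35.6% and 37.4% for NF1, 11.2% and 6.58% for RUNX, 10.1% and 7.63% for TEAD, 10.7% and 17.9% for ETS, 5.26% and 7.37% for the E-box and 5.48% and 5.26% for AP-1. Over the full windows, from 250 bases before to 50 after the start, median GC content was 62.7% at intragenic starts, 62.3% at starts in promoters and 52.7% at all starts. The observed over expected CpG ratio was 0.767, 0.804 and 0.383 in that order. In base composition the intragenic starts thus lay close to the starts within promoters. Over the same windows, SP/KLF matches lay at 73.9% of intragenic starts, 70.7% of starts in promoters and 35.6% of all starts. For ETS the shares were 24.7%, 31.4% and 14.9%. The SP/KLF share was thus not particular to intragenic starts, and the ETS share was below that of promoters. A match is a description of letters and not a bound site.

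Intragenic regions were short and weak beside promoters. Their median length was 327 bp and their median signal per kb 221, against 847 bp and 308 per kb for promoters. The number of intragenic regions was 1 in 1990 genes, 2 in 246, 3 in 34 and 4 in 3 genes. Regions with a RefSeq start of the same gene had a median length of 889 bp and a median signal of 276 among those tested, and regions with no start had a median signal of 64.8. At the distance limit, the 20 regions just past it (1001 to 1016 bp) had a median signal of 65.1, and the 20 just short of it and wholly inside a gene (984 to 1000 bp) had 47.7. The median log2 fold change was 0.11 in the first and -0.0065 in the second, with 8 and 4 regions called.

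The 8 intragenic regions with the highest signal per kb belonged to Def8, Dnaja3, Ing1, Add3, Eif4ebp1, Mnt, Rps6ka5 and Ajuba. A region 4014 bp into Def8 (chr8:123426276-123428805) was the strongest of the whole table, with 7676, 7799 and 10032 in GFP guide replicates 1, 2 and 3 and 6908, 6782 and 6709 in the Actg1 guide replicates. All Actg1 guide libraries lay below the controls, and GFP guide replicate 3 stood above the other controls. The log2 fold change was -0.37 (SE 0.041, limma adjusted p = 1.0e-09), and without GFP guide replicate 3 it was -0.19. The 2 control samples had an SD of 1622 around a mean of 8885. The SE and p-value, which lean on other regions of like signal, do not reflect that gap. Add3, which encodes gamma-adducin, a cap of actin filaments at the spectrin skeleton, had 1113, 1123 and 1168 against 985, 1019 and 1047 at its internal start. The groups did not overlap, at -0.17 (SE 0.045, limma adjusted p = 0.0023). Rps6ka5, the kinase MSK1 that phosphorylates histone H3 and CREB, had 1187, 1172 and 1232 against 1113, 1040 and 1131, at -0.14 (limma adjusted p = 0.010). Ing1, a reader of methylated histone H3 in a deacetylase complex, had 1130, 1195 and 1219 against 1130, 1121 and 1067, at -0.11 (limma adjusted p = 0.048). Both Add3 and Rps6ka5 lost the call without GFP guide replicate 3, at -0.14 and -0.11, and Rps6ka5 also without Actg1 guide replicate 2 and after cyclic loess scaling, both at -0.10. For Ing1 the call ended in 9 of the alternatives run. The regions of Dnaja3, a mitochondrial co-chaperone (0.01), Eif4ebp1, a repressor of translation (0.12), Mnt, a MAX partner (-0.04), and Ajuba, a LIM domain protein (-0.08), did not pass the test.

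With the Actg1 guide, 541 intragenic regions were higher and 438 lower among the 2558 that passed the filter on low values (limma on log2(signal + 1), adjusted p under 0.05). That is 38.3% of them, where over all 61327 tested regions 41.3% were called, 20.6% higher and 20.7% lower. A filter on low values left out 38 intragenic regions. The share called was thus a little below that of the table, with the higher calls at 21.1% and the lower at 17.1%. The median log2 fold change was 0.02 over intragenic regions and -0.0057 over all regions. At least 2-fold changes were called in 126 intragenic regions upward and 97 downward, 8.72% of those tested, against 12.2% of all regions, 6.13% upward and 6.03% downward. In 47.5% the groups did not overlap over the 6 libraries, against 50.8% of all regions. Without GFP guide replicate 3 the control group had 1 sample, assumed to vary like the other group. Fewer regions were then called, both among intragenic regions and over all regions. Counts and shares given below for that omission are therefore not comparable with the shares of the full fit.

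The rises with a mean signal of at least 50 were led by genes of varied function. The region 4865 bp into Tbc1d23 (chr16:57226536-57226741), a gene of vesicle capture at the Golgi, had 26, 13 and 20 with the GFP guide and 85, 93 and 81 with the Actg1 guide. Its 2 groups were far apart, 2.07 on the log2 scale (SE 0.18, limma adjusted p = 2.6e-12). Foxm1, a transcription factor of the G2 and M phases, had 68, 60 and 72 against 182, 195 and 142, at 1.32 (SE 0.13, limma adjusted p = 3.4e-11). The region of Aarsd1, a tRNA editing protein, rose by 1.496 from 32, 38 and 35 to 98, 107 and 97. Ube2g2, a ubiquitin-conjugating enzyme of endoplasmic reticulum quality control, had 27, 33 and 28 against 66, 96 and 84, at 1.45 (SE 0.18). In Ift52, a subunit of intraflagellar transport, the values were 23, 29 and 29 against 73, 68 and 78, at 1.38 (SE 0.18). The groups did not overlap in any of these, since naming required it. The other named rises were Rdh13 (a mitochondrial retinol dehydrogenase), Arhgap23 (a GTPase-activating protein), Rnf122, Siglec10 (a lectin of leukocytes), Tub, Flacc1 and Msh5 (a meiotic MutS homologue), with log2 fold changes of 1.22 to 1.33. None of the 12 held a RefSeq start of its own gene.

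The falls reached further. Kbtbd11 (chr8:15012916-15013251) had 90, 94 and 77 against 16, 14 and 15, or -2.41 on the log2 scale (SE 0.23, limma adjusted p = 2.2e-11). Adgra2 (chr8:27089728-27090125), an adhesion receptor that acts with Wnt7 ligands, had 331, 358 and 353 against 72, 96 and 71, at -2.13 (SE 0.12, limma adjusted p = 1.0e-17). In Arhgap28, a GTPase-activating protein for RhoA, the values were 135, 154 and 159 against 38, 30 and 39, at -2.07 (SE 0.16). The 3 Actg1 guide libraries lay far below the lowest control in each of these genes. Cfap45, a ciliary microtubule protein, had 214, 190 and 185 against 44, 47 and 47, at -2.05 (SE 0.14). Tppp3, a tubulin polymerization protein, had 95, 86 and 88 against 20, 23 and 33, at -1.81 (SE 0.21). Fgf18, a fibroblast growth factor, had 92, 96 and 86 against 36, 24 and 42, at -1.41 (SE 0.19). The groups lay apart in each, and the other named falls were 1190005I06Rik (-1.94), Gm20721 (-1.66), Glis2, a zinc finger transcription factor (-1.50), Pou2af1, a B cell coactivator (-1.45), Smim1 (-1.44) and Exoc3l4 (-1.34). None of the 12 falls held a RefSeq start of its gene, and none of the 24 calls ended in the alternatives run.

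**Figure D1:**
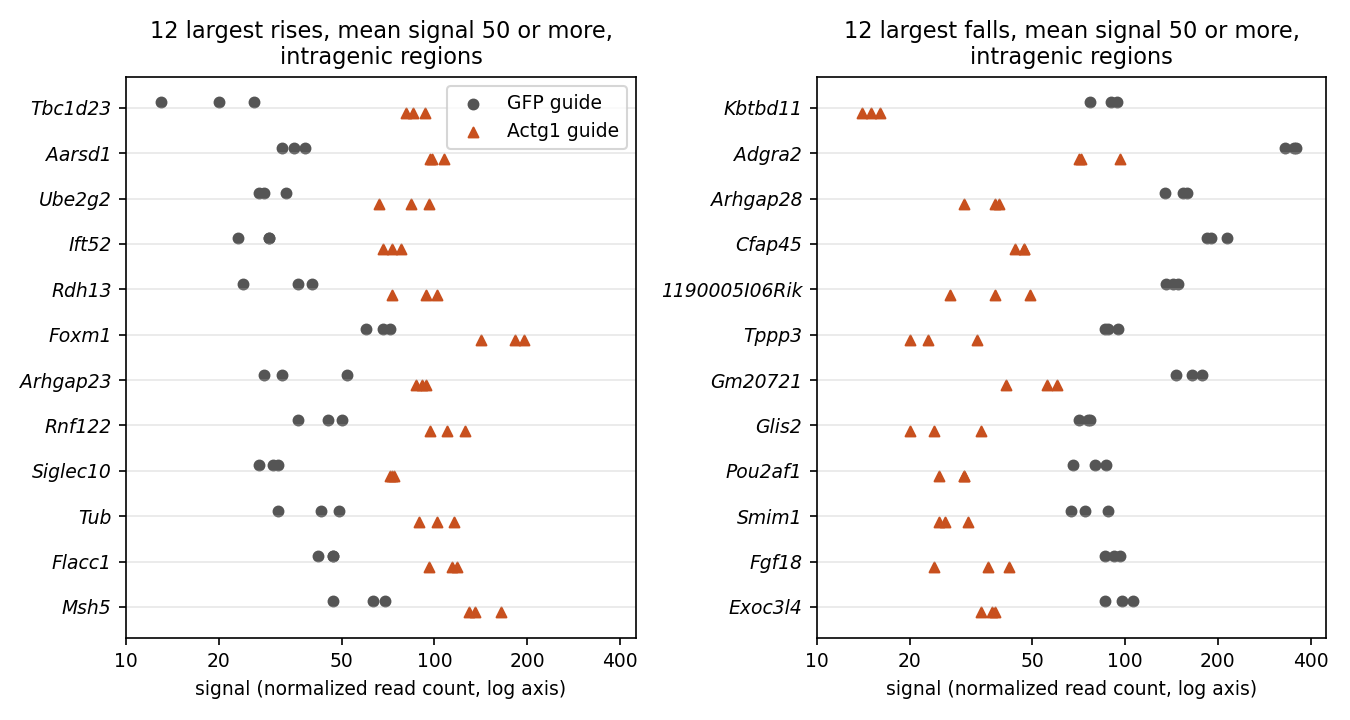
Signal (normalized read count, log axis) of the 24 intragenic regions with the largest called changes, 1 point per library, with circles for the GFP guide and triangles for the Actg1 guide. In every row the 3 triangles lie on 1 side of the 3 circles, as the choice of regions required, and Kbtbd11 falls from 77 to 94 to values of 14 to 16.

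Regions with and without a RefSeq start differed in how much they changed. Of 314 tested regions with a start of their own gene, 42 were higher and 60 lower (32.5%), and 3 changed at least 2-fold. Of 2207 tested regions with no start, 496 were higher and 369 lower (39.2%), and 218 changed at least 2-fold. The order of the shares called was reversed in genes that also had a promoter region. There 37 of 75 regions with a start were called (49.3%) and 493 of 1279 without (38.5%). In genes lacking one the counts were 65 of 239 (27.2%) and 372 of 928 (40.1%). The median absolute log2 fold change was 0.133 with a start, 0.295 without and 0.139 at promoters, where 1283 of 9954 were higher and 1822 lower (31.2%). Signal differed as well, so the classes were set side by side at like signal. Between 100 and 200 the median absolute change was 0.172 with a start, 0.247 without, 0.150 at promoters and 0.253 over all regions, and at 200 and over it was 0.117, 0.157, 0.121 and 0.145. These shares describe the classes, and no test of their difference was made. Without GFP guide replicate 3 the counts were 13 higher and 16 lower with a start, 287 and 174 without, and 406 and 477 at promoters.

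The share called was larger farther from the TSS. It was 29.5% at 1000 to 1500 bp, 35.9% at 1500 to 2000, 40.6% at 2000 to 3000, 39.2% at 3000 to 4000 and 46.1% at 4000 to 6000 bp, while the median signal of these classes was 83.8, 72.3, 67.8, 74.2 and 76.3. Higher calls outnumbered lower ones at 3000 to 4000 bp (118 against 68) and not at 4000 to 6000 bp (115 against 129). When GFP guide replicate 3 was left out, the shares were 12.5%, 17.2%, 20.5%, 22.2% and 24.4%.

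**Figure D2:**
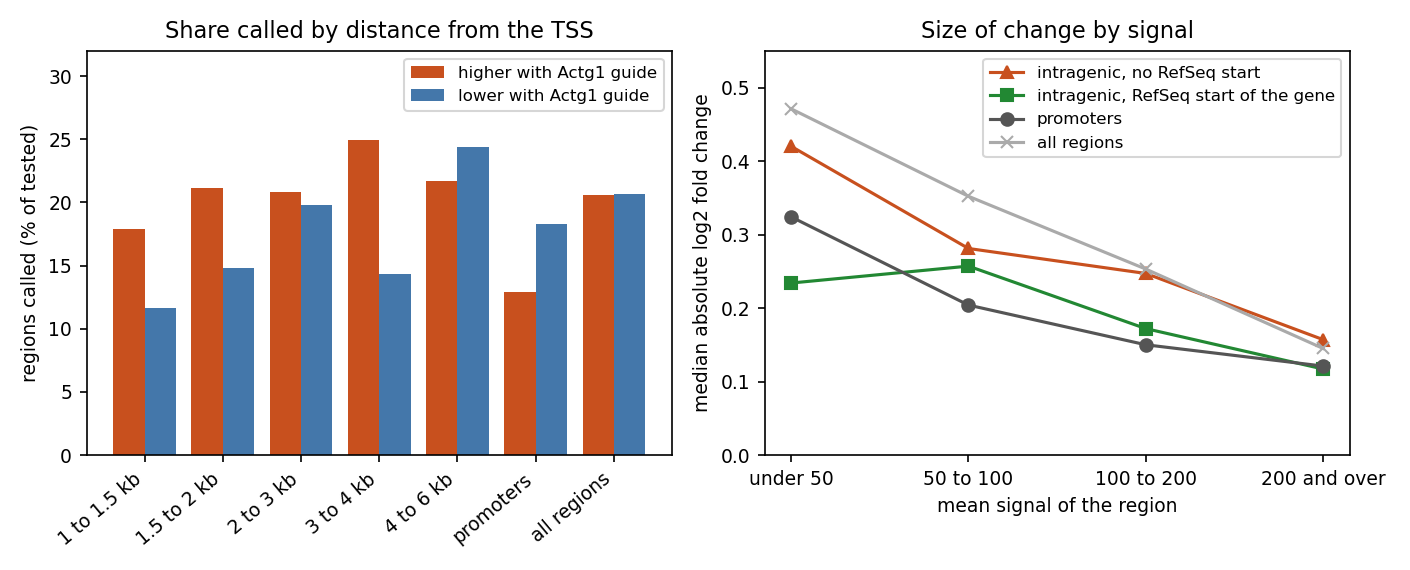
Left, percentage of tested regions called higher or lower with the Actg1 guide, for intragenic regions by distance from the TSS, for promoters and for all regions; right, median absolute log2 fold change by mean signal for 4 classes of region. Intragenic regions at 1 to 1.5 kb have 17.9% higher and 11.6% lower calls, and intragenic regions without a RefSeq start lie above promoters at every signal level.

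Each intragenic region was then set against the promoter region of the same gene nearest to the TSS, which existed for 1373 regions and gave 1361 tested pairs in 1195 genes. The difference in log2 fold change between the intragenic region and the promoter was called in 440 pairs (32.3%), with 268 (19.7%) in which the intragenic region moved up relative to the promoter and 172 (12.6%) in which it moved down. In 343 pairs the intragenic region alone was called, in 259 the promoter alone, in 128 both in the same direction, in 64 both in opposite directions and in 567 neither. The absolute change was larger in the intragenic region in 875 pairs, with medians of 0.261 and 0.154, and median signals of 80.8 and 251. Across the 1361 pairs, which share libraries and whose genes are not independent replicates, Pearson's r of the changes was 0.20. Per kb the intragenic region was stronger than the promoter in 514 pairs. Without GFP guide replicate 3, 134 and 58 pairs were called upward and downward, and among regions at least 2000 bp from the TSS 164 and 132.

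Over whole libraries the shift between the classes was small. The median log2 ratio of signal per kb, intragenic over promoter, was -0.28, -0.31 and -0.28 in GFP guide replicates 1, 2 and 3 and -0.23, -0.18 and -0.21 in the Actg1 guide replicates. All 3 Actg1 guide libraries lay above the controls, by 0.082 on average (exact two-sided permutation p = 0.1, the smallest that 2 against 3 samples allow). Intragenic regions held 4.632%, 4.645% and 4.664% of the signal of the GFP guide libraries and 4.729%, 4.683% and 4.695% of that of the Actg1 guide libraries. The Actg1 guide values were again higher, by 0.0514 percentage points (exact permutation p = 0.1).

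**Figure D3:**
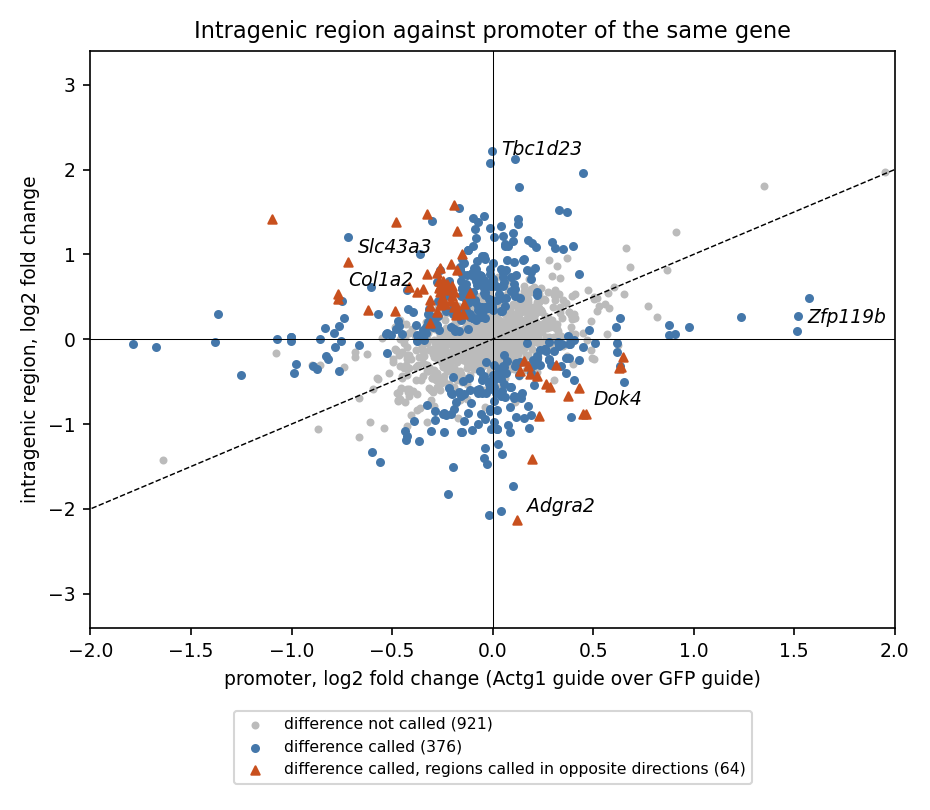
Log2 fold change (Actg1 guide over GFP guide) of the intragenic region against that of the promoter of the same gene, 1 point per pair, with the line of equal change dashed. Of the 440 called differences, 64 (triangles) have regions called in opposite directions, and Zfp119b lies at the right, where the promoter rose by 1.51.

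Opposite calls were the sharpest contrast within a gene, in a small share of the pairs. In 46 pairs the intragenic region rose while the promoter fell and in 18 it was the reverse. These 64 of 1361 pairs (4.7%) lie in 62 genes, and 128 pairs (9.4%) were called in the same direction. Whether 64 differs from the number that unrelated calls would give was not tested. The difference passed the pair test in all 64, which is nearly bound to happen once both regions are called in opposite directions. Without GFP guide replicate 3 the numbers were 12 and 4, without Actg1 guide replicate 1 they were 29 and 9, without replicate 2 of that group 29 and 13 and without its replicate 3 34 and 11. Among the 774 tested pairs with regions at least 2000 bp from the TSS, 26 and 14 had opposite calls. After the median of each chromosome was removed, an alternative chosen after seeing the data, they were 41 and 16. Col1a2, which encodes the second chain of type I collagen, was of the first kind. Its promoter, centred 819 bp from the TSS, had 250, 249 and 255 with the GFP guide and 146, 146 and 151 with the Actg1 guide. The region centred 2383 bp from the TSS (chr6:4506760-4507633) had 153, 133 and 130 against 195, 206 and 191. In the controls the promoter had more signal and with the Actg1 guide the intragenic region did, and neither set overlapped. The intragenic region is the longer one, so this switch holds for signal and not for signal per kb. Over the 6 libraries the promoter had 310 per kb and the intragenic region 192. The changes were -0.77 and 0.53, with a difference of 1.30 (SE 0.12, limma adjusted p = 4.5e-09). A second region 1501 bp into Col1a2, added after its values were seen, had 53, 47 and 45 against 73, 62 and 64, at 0.47 (limma adjusted p = 0.021), and lost that call without GFP guide replicate 3 (0.40) and without Actg1 guide replicate 1 (0.40).

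Slc43a3, a nucleobase transporter, had opposite changes of the same kind. Its promoter had 113, 98 and 132 against 66, 66 and 83, and its region at 2064 bp had 77, 69 and 55 against 123, 103 and 138. Neither set overlapped, and the difference was 1.64 (SE 0.18, limma adjusted p = 1.4e-07). Rnf122 also combined a fall at the promoter (438, 479 and 471 against 403, 395 and 436, log2 fold change -0.18) with a rise within the gene (45, 36 and 50 against 126, 110 and 97). The promoter groups lay close, and the difference was 1.45 (SE 0.17, limma adjusted p = 5.0e-07).

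Adgra2, Fgf18 and Dok4 were of the reverse kind. At the promoter of Adgra2 the values were 773, 793 and 794 against 871, 830 and 869, a rise of 0.12 beside the change of -2.13 within the gene, with a difference of -2.25 (SE 0.14, limma adjusted p = 2.3e-12). Dok4, a docking protein of receptor tyrosine kinases, had 139, 165 and 149 against 205, 208 and 204 at its promoter and 135, 144 and 148 against 71, 82 and 81 at 4925 bp. Its control libraries were at like levels in both regions, and the Actg1 guide libraries lay above them at the promoter and below them inside the gene (difference -1.32, SE 0.14, limma adjusted p = 1.4e-07). The promoter of Fgf18 had 357, 325 and 303 against 370, 397 and 341, with overlap, and the difference was -1.61 (SE 0.23).

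In other pairs the intragenic region was called and the promoter was not. The promoter of Tbc1d23 had 493, 523 and 496 against 504, 527 and 466 (log2 fold change -0.01), with a pair difference of 2.08 (SE 0.20, limma adjusted p = 1.0e-08). Arhgap28 had 800, 864 and 824 against 793, 806 and 855 at its promoter, with a difference of -2.05 (SE 0.18, limma adjusted p = 4.2e-09). The promoter groups overlapped in both genes. The pair difference was 1.49 in Ube2g2, 1.45 in Ift52, 1.33 in Arhgap23, 1.29 in Rdh13, -1.27 in Foxj2, a forkhead factor, and -1.18 in Tmem63a, a mechanosensitive channel. In Glis2 both regions fell, with 508, 474 and 490 against 414, 433 and 437 at the promoter (-0.20, limma adjusted p = 0.012) and a pair difference of -1.30. None of the 16 named pairs lost its call in the alternatives run.

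**Figure D4:**
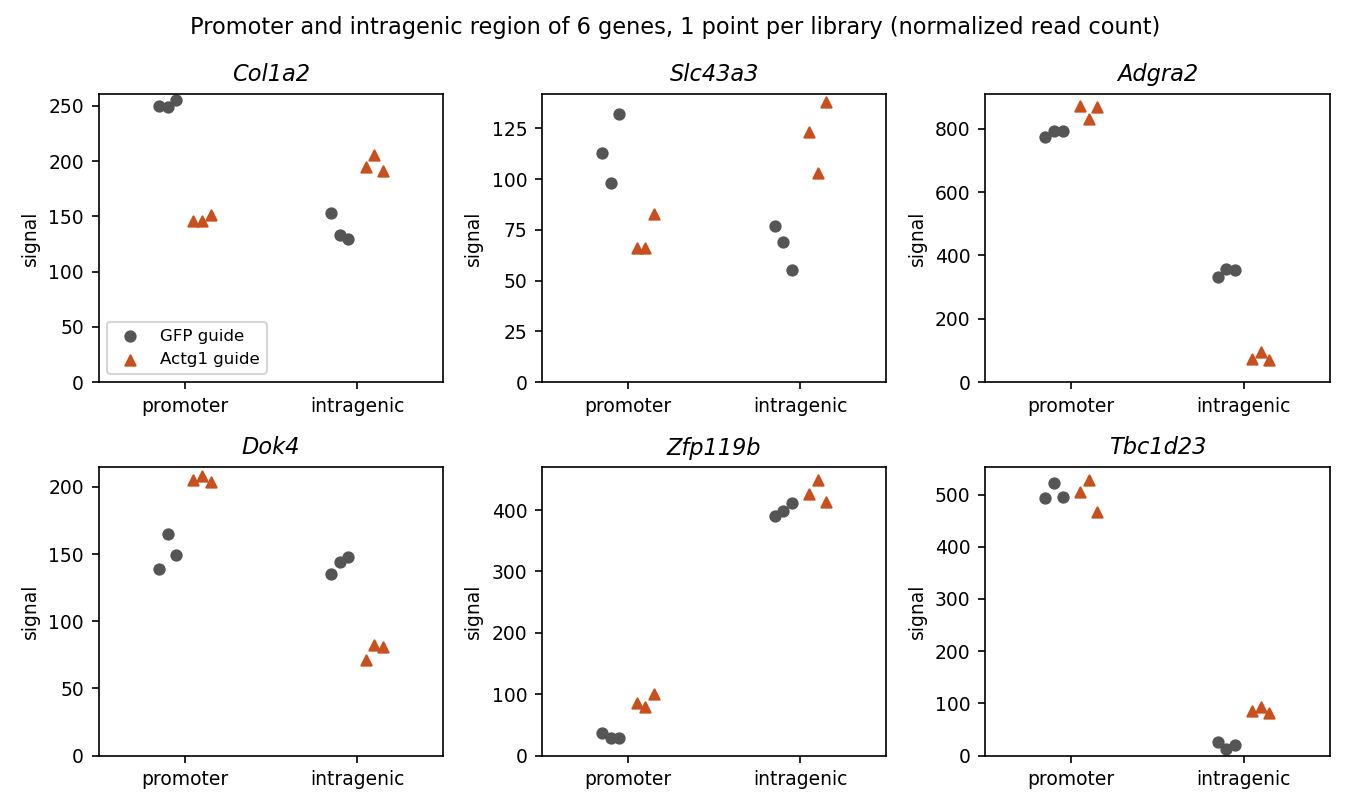
Signal of the promoter and of the intragenic region with the largest pair difference in 6 genes, 1 point per library, with the GFP guide as circles and the Actg1 guide as triangles. In Col1a2 the promoter drops from 249 to 255 to 146 to 151 while the intragenic region gains, and in Zfp119b the weak promoter rises beside a strong intragenic start.

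Where the intragenic region held a start of its own gene, the annotated promoter could be the weaker region. In 74 tested pairs of this kind 12 differences were called upward and 8 downward, and the intragenic region had more signal in 39. Zfp119b, a zinc finger gene of the KRAB family, had 37, 29 and 28 against 86, 80 and 101 at the annotated promoter and 390, 399 and 411 against 426, 449 and 413 at the internal start. The promoter libraries lay apart (log2 fold change 1.51, limma adjusted p = 1.4e-09) and the intragenic ones differed by 0.09 (limma adjusted p = 0.29), so that the pair difference was -1.42 (SE 0.19, limma adjusted p = 3.3e-06). The next 3 genes were chosen after their values were seen. Sh2b2, an adaptor of insulin and cytokine receptors, had 16, 22 and 21 against 57, 66 and 55 at the promoter and 240, 232 and 269 against 300, 289 and 324 inside the gene, where the smaller rise of 0.27 lost its call without Actg1 guide replicate 3 (0.22). In Nectin3, a cell adhesion protein, the promoter rose by 0.65 from 38, 41 and 48 to 61, 70 and 76, while the internal start had 756, 794 and 753 against 665, 631 and 681 (-0.21, limma adjusted p = 0.0013). Cirbp, a cold-inducible RNA-binding protein, had 702, 743 and 797 against 1000, 932 and 962 at its internal start (0.35) and 105, 126 and 146 against 90, 91 and 73 at the nearest promoter region (-0.62). Set against the strongest promoter region of Cirbp, the pair difference of 0.96 became 0.03 (limma adjusted p = 0.88).

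Neighbouring regions of a gene did not always move together. Of 276 genes with at least 2 tested intragenic regions, 20 had all of them higher, 11 all lower, 118 none called and 13 had regions called in both directions. The examples that follow, apart from Kdm6b, Cpt1a, Csrnp1, Furin, Ccnd2 and Bbc3, were chosen after their values were seen. In Ube2g2 the region at 1556 bp rose as given above, whereas the region at 2385 bp had 47, 65 and 49 against 20, 16 and 22, or -1.40 on the log2 scale (limma adjusted p = 5.8e-06). Both sets lay apart, and a region at 1065 bp had 46, 56 and 47 against 40, 64 and 44, with overlap. In Ppm1l, a protein phosphatase, 36, 28 and 39 against 63, 68 and 60 at 1187 bp stood beside 95, 107 and 120 against 56, 72 and 59 at 1894 bp. The changes were 0.83 and -0.82 around a promoter at -0.01. Dot1l, the histone H3 lysine 79 methyltransferase, had 135, 154 and 124 against 82, 84 and 105 at 2643 bp (-0.57) and 95, 123 and 103 against 186, 191 and 167 at 3712 bp (0.77). Slco2a1, a prostaglandin transporter, had 415, 403 and 397 against 493, 506 and 515 at 5323 bp (0.32), and its region at 4398 bp fell by 0.51, or by 0.49 and no longer called without GFP guide replicate 3.

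Kdm6b, which encodes an H3K27 demethylase, was a gene whose regions moved as a block. At 2456 bp it had 455, 488 and 474 against 739, 704 and 701 (log2 fold change 0.59, SE 0.057, limma adjusted p = 2.6e-11) and at 4086 bp 200, 203 and 199 against 303, 303 and 302 (0.59, limma adjusted p = 1.6e-07). The groups lay apart in both. Its region at 4822 bp rose by 0.24, a call that ended without GFP guide replicate 3 (0.26), without Actg1 guide replicate 1 (0.20) and after chromosome medians were removed (0.18). Cpt1a, the enzyme that commits fatty acids to mitochondrial oxidation, had 4 regions. At its internal start, 1035 bp from the TSS, the values were 291, 299 and 295 against 274, 279 and 284, and the 2 farthest regions had 35, 36 and 43 against 69, 72 and 78 (0.88, limma adjusted p = 4.2e-05) and 272, 233 and 239 against 349, 327 and 323 (0.44, limma adjusted p = 1.7e-05). The start region differed by -0.08 without a call while both farther regions rose. Csrnp1, a nuclear protein induced by Axin, had 891, 844 and 914 against 909, 896 and 899 at its start (0.02) and 333, 332 and 358 against 219, 220 and 239 at 3053 bp (-0.61, limma adjusted p = 1.0e-07). In Furin, a proprotein convertase, 1 of 4 regions was called, at 4242 bp with 0.58, or 0.57 and not called without GFP guide replicate 3. None of the 4 regions of Ccnd2, a D-type cyclin (-0.08 to 0.36), or of the 3 of Bbc3, the p53 effector PUMA (-0.04 to 0.18), was called.

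Genes were also read by group, each with the share called over all regions, 41.3% (20.6% higher and 20.7% lower), as background. No list was tested against that share. That background is of the full fit. Without GFP guide replicate 3 it was lower over the whole table, and a larger part of the calls was higher. A list count that falls with that omission, or tilts upward, is therefore not a trait of the list. Regulators of actin filaments had 21 tested regions in 16 genes, of which 5 were higher and 2 lower (33.3%). Their median log2 fold change was 0.02 against -0.0057 for all regions. Fscn1, the actin-bundling protein fascin, had 509, 531 and 520 against 657, 704 and 602 (0.33, SE 0.061, limma adjusted p = 2.5e-05). Cfl2, cofilin 2, named after its values were seen, had 43, 51 and 52 against 96, 123 and 110 (1.126, limma adjusted p = 4.0e-08) beside a promoter at 0.06. The groups did not overlap in either gene. Wdr1, a cofilin cofactor (-0.22), and Fmnl3, a formin (0.35), lost their calls without GFP guide replicate 3, at -0.19 and 0.40, and Fmnl3 also without Actg1 guide replicate 1 (0.34) or 2 (0.32). Leaving GFP guide replicate 3 out, the list had 2 higher and 1 lower.

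Targets of SRF and its actin-regulated cofactor MRTF had 2 higher and 4 lower of 10 tested regions, with a median of -0.03. That is 60%, against 41.3% of all regions. Cnn2, calponin 2, had 133, 162 and 167 against 107, 85 and 97 (-0.70, SE 0.12, limma adjusted p = 1.1e-05), with no overlap. Pdlim7 (-0.26), Tpm4, a tropomyosin (-0.15), and Tagln2, transgelin 2 (-0.30), were also lower, and none of the 3 was called without GFP guide replicate 3, at -0.22, -0.13 and -0.18. Tpm4 also lost the call without Actg1 guide replicate 1 (-0.14) and after cyclic loess scaling (-0.11), and Tagln2 after chromosome medians were removed (-0.26), without GFP guide replicate 2 (-0.28) and without Actg1 guide replicates 2 (-0.26) and 3 (-0.29). Tpm1, a further tropomyosin named after its values were seen, had 27, 28 and 23 against 55, 70 and 49 (1.16, SE 0.20, limma adjusted p = 9.8e-06). Leaving GFP guide replicate 3 out, the list had 2 higher and 1 lower.

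YAP and TEAD genes had 2 higher and 3 lower of 13 (38.5%, against 41.3% of all regions), with a median of -0.08. Tead4, a DNA-binding partner of YAP, had 324, 376 and 398 against 239, 258 and 300 (-0.50, limma adjusted p = 7.7e-06), with no overlap. Amotl2 (0.12), Amotl1 (-0.19) and Tgfb2 (-0.40), which are angiomotin-like scaffolds and a TGF-beta ligand, were not called without GFP guide replicate 3, at 0.07, -0.21 and -0.46. Amotl2 also lost the call without GFP guide replicate 1 (0.10) and Actg1 guide replicates 1 (0.09) and 3 (0.12), Amotl1 without Actg1 guide replicate 3 (-0.17) and Tgfb2 without GFP guide replicate 2 (-0.33) and Actg1 guide replicate 1 (-0.35). Genes of focal adhesions and integrins had 2 higher and 5 lower of 20 (35%), with a median of -0.16. Cavin1, a coat protein of caveolae, rose from 268, 286 and 286 to 344, 357 and 339 (0.30, limma adjusted p = 0.0013). Src, the tyrosine kinase (-0.32), Rhoc, a small GTPase (-0.19), and Itgav, integrin alpha V (-0.30), were lower and not called without GFP guide replicate 3, at -0.26, -0.19 and -0.28. Rhoc also lost the call without Actg1 guide replicates 1 (-0.20) and 3 (-0.15), and Itgav without GFP guide replicate 1 (-0.30) and Actg1 guide replicates 1 (-0.23) and 3 (-0.24). The first of these lists had 1 higher and 1 lower without GFP guide replicate 3, and the second 1 higher and 0 lower.

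Collagen and matrix genes had the most regions of any list, 29 tested in 19 genes, with 8 higher and 6 lower and a median of -0.0038. That is 48.3%, against 41.3% of all regions. Beside Col1a2, Col5a1 had 139, 163 and 162 against 213, 199 and 214 (0.41, limma adjusted p = 0.00059) with a promoter at -0.01. Among the 6 falls were Fbln2 (-0.88, limma adjusted p = 3.9e-06) and Sparc at 3302 bp (-0.67, limma adjusted p = 3.1e-05). Both were named after their values were seen, and Sparc was not called at 4992 bp (-0.11). Mmp14, a membrane-bound collagenase, was a gene of mixed direction. Its region at 1016 bp had 142, 109 and 166 against 212, 192 and 212 (0.50, limma adjusted p = 0.00016), the one at 1841 bp had 159, 164 and 169 against 133, 124 and 143 (-0.31, limma adjusted p = 0.020), and the one at 3809 bp had 469, 454 and 454 against 431, 458 and 482 (-0.0038). The groups overlapped only at 3809 bp, and the fall lost its call when GFP guide replicate 3 (-0.28) or 1 of the first 2 Actg1 guide libraries (-0.31 and -0.26) was left out. Leaving GFP guide replicate 3 out, the list had 6 higher and 3 lower.

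Signalling pathways differed in their counts. TGF-beta and BMP genes had 5 higher and 2 lower of 13 (53.8%, against 41.3% of all regions), with a median of 0.17. Inhba, the activin A subunit, had 53, 52 and 65 against 86, 100 and 101 (0.70, limma adjusted p = 0.00017), and Bmpr2, a BMP receptor, had 68, 49 and 62 against 90, 85 and 84 (0.51, limma adjusted p = 0.0043). Neither overlapped, while Id3, a BMP target, had 121, 110 and 97 against 114, 137 and 142 (0.30, limma adjusted p = 0.049), with overlap, and lost its call without GFP guide replicate 3 (0.17), GFP guide replicate 2 (0.27), Actg1 guide replicate 2 (0.26) or 3 (0.24), after cyclic loess scaling (0.29), with no filter on low values (0.30) or in the fit of 6 separate libraries (0.26). Wnt, Fgf, Hedgehog and Notch genes had 3 higher and 4 lower of 14 (50%), with a median of -0.00089. The Wnt effector Tcf7l2 had 118, 125 and 122 against 191, 170 and 161 (0.51, limma adjusted p = 0.00018), and Axin1, a scaffold for beta-catenin breakdown, 179, 167 and 178 against 129, 130 and 131 (-0.43, limma adjusted p = 0.0011). Of the Frizzled receptors, Fzd2 had 69, 92 and 67 against 130, 155 and 116 at 1736 bp (0.84) and -0.59 at 2520 bp, where the call ended without GFP guide replicates 1 (-0.52) or 3 (-0.51) or Actg1 guide replicate 2 (-0.47). Fzd7 rose by 0.38, which lost its call when GFP guide replicate 3 (0.35) or 1 of the first 2 Actg1 guide libraries (0.37 and 0.31) was left out. Leaving out GFP guide replicate 3 gave 4 higher and 0 lower for TGF-beta and BMP and 2 and 3 for the other list.

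Growth factor receptors had 1 higher and 4 lower of 15 (33.3%, against 41.3% of all regions), with a median of -0.06. Pdgfrb, a receptor for platelet-derived growth factor, had 69, 80 and 81 against 44, 39 and 49 (-0.81, limma adjusted p = 0.00017), with no overlap. S1pr2, a sphingosine-1-phosphate receptor (-0.42), and the collagen receptor Ddr1, at 2348 bp (0.30) and 4193 bp (-0.13), were not called without GFP guide replicate 3, at -0.44, 0.27 and -0.09. The lower region of Ddr1 also lost the call without GFP guide replicate 2 (-0.11), Actg1 guide replicates 1 (-0.14) and 3 (-0.08) and after cyclic loess scaling (-0.09). Leaving GFP guide replicate 3 out, the list had 0 higher and 1 lower.

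Immediate early and AP-1 genes had 3 higher and 0 lower of 15, with a median of 0.15. That is 20% called, against 41.3% of all regions, of which 20.6% were higher. Maff, a small Maf factor, had 456, 536 and 470 against 630, 598 and 621 (0.35, limma adjusted p = 5.6e-06), Ier2 had 199, 213 and 175 against 296, 268 and 281 (0.57, limma adjusted p = 1.8e-06) and Klf6 had 29, 39 and 32 against 60, 49 and 71 (0.83, limma adjusted p = 0.00045). All 3 were separate from the controls, and the list had the same counts without GFP guide replicate 3. Klf10 had 822, 725 and 849 against 813, 741 and 771 and did not pass. NF-kB and inflammatory genes had 3 higher and 2 lower of 7 (71.4%). In Lif, a cytokine of the interleukin 6 family, the regions at 4591 and 3937 bp rose by 0.60 and 0.79, from 82, 69 and 91 to 121, 130 and 127 and from 28, 31 and 35 to 52, 51 and 67. Traf1, an adaptor of TNF receptors, rose by 0.39, and Vcam1, an adhesion molecule, was lower at -0.88 with values of 25, 25 and 19 against 6, 16 and 15. The call of Vcam1 ended without any library other than Actg1 guide replicate 2 and was at -0.47 without Actg1 guide replicate 1. Leaving GFP guide replicate 3 out, the list had 3 higher and 0 lower.

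Interferon genes had 2 higher and 0 lower of 4 (50%, against 41.3% of all regions). Cxcl10, a chemokine, had 7, 6 and 10 against 48, 28 and 30 (1.96, SE 0.30, limma adjusted p = 9.9e-07), and Irf2, a transcription factor that restrains the response, had 462, 508 and 523 against 619, 566 and 612 (0.25, limma adjusted p = 0.00093). The groups were separate in both. Dhx58 (0.30) and Parp14 (-0.07) did not pass. Targets of p53 had 3 higher and 0 lower of 7 (42.9%). Cdkn1a, the cell cycle inhibitor p21, had 856, 902 and 855 against 1047, 1025 and 1059 at 3970 bp (0.27, limma adjusted p = 8.1e-06) and 300, 331 and 311 against 424, 369 and 377 at 2832 bp (0.31, limma adjusted p = 0.00068). Neither overlapped. The call at 2832 bp and that of Gadd45a (0.32) ended without GFP guide replicate 3, at 0.30 and 0.34, and Gadd45a also without Actg1 guide replicate 1 (0.28) or 3 (0.29), so that without GFP guide replicate 3 the list had 1 higher.

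Genes of mRNA decay, the process the study asks about, and genes of the unfolded protein response had 3 tested regions each, and none was called by limma (0 and 1 at an unadjusted p under 0.05). For Cnot6l, a deadenylase, the values were 374, 383 and 372 against 390, 358 and 376 (-0.003) and 29, 31 and 30 against 27, 24 and 21 (-0.32). Upf1, the helicase of nonsense-mediated decay, had 50, 56 and 41 against 39, 65 and 39 (-0.01), with overlap. The stress regulator Nupr1 had changes of -0.10, 0.20 and -0.03. Chromatin genes, which include the H3K4 methyltransferase complexes, had 4 higher and 1 lower of 8 (62.5%, against 41.3% of all regions). Of the 4 rises, 3 were the regions of Kdm6b. The remaining rise, in Arid1a (0.38), a subunit of the BAF remodeller, was not called without GFP guide replicates 2 (0.34) or 3 (0.36) or Actg1 guide replicates 1 (0.35) or 2 (0.35), and the list had 2 higher and 0 lower without GFP guide replicate 3.

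Cell cycle genes had 1 higher and 2 lower of 11 (27.3%, against 41.3% of all regions). E2f3 (-0.38), Cdk6 (0.34) and Ccnd3 (-0.31) were no longer called without GFP guide replicate 3, at -0.32, 0.19 and -0.39. Cdk6 also lost the call without Actg1 guide replicate 1 (0.27), and Ccnd3 without GFP guide replicate 2 (-0.24) and Actg1 guide replicate 1 (-0.23). Genes of fibroblast identity had 4 higher and 1 lower of 16 (31.2%), with a median of 0.09. Prrx1, a mesenchymal homeobox factor, had 116, 111 and 108 against 203, 176 and 191 (0.77, limma adjusted p = 1.4e-07), and Foxc1, a forkhead factor, had 45, 49 and 35 against 96, 65 and 80 (0.95, limma adjusted p = 2.3e-05). The groups did not overlap in either, and Snai1, a repressor of E-cadherin, rose by 0.51, or 0.45 and not called without GFP guide replicate 3.

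Markers of other cell types had few regions inside their genes. Csf1r, the receptor for colony-stimulating factor 1 of macrophages, had 12, 14 and 18 against 44, 50 and 50 (1.58, SE 0.23, limma adjusted p = 3.9e-07), and Cidec, a lipid droplet protein of adipocytes, had 51, 54 and 45 against 97, 88 and 105 (0.97, limma adjusted p = 1.3e-06). Both sets were separate. The muscle genes Myh3 (-0.16) and Tnni1 (-0.06), the keratin Krt19 (0.06), the glial factor Sox10 (-0.68), Sox6 (0.30 and 0.39) and Plin1 (0.05 at 3510 bp and 0.32 at 4510 bp, the latter added after its values were seen) did not pass.

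Intragenic regions differed between chromosomes, and so did promoters. On chromosome X, 6 of 76 tested intragenic regions rose and 26 fell, with a median log2 fold change of -0.17, beside medians of -0.18 for promoters and -0.11 for all regions of X. On chromosome 17, 41 of 121 were higher and 15 lower, with a median of 0.12, beside 0.06 for promoters and 0.05 for all regions. On chromosome 11, where Actg1 lies, 63 of 218 were higher and 31 lower, with medians of 0.04, 0.09 and 0.05. Of all 1745 tested regions of X, 235 were higher and 450 lower. The counts were 746 and 552 of 2849 on chromosome 17 and 908 and 675 of 3887 on chromosome 11. A setting with the median of each chromosome removed per library was added once the data had been seen. It gave 7 and 18 intragenic regions higher and lower on X, 34 and 20 on chromosome 17 and 53 and 39 on chromosome 11. Without GFP guide replicate 3 they were 3 and 9, 22 and 8, and 35 and 8. Both regions of a pair lie on the same chromosome, so the pair counts of 268 and 172 did not move when chromosome medians were removed. No test between chromosomes was made.

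**Figure D5:**
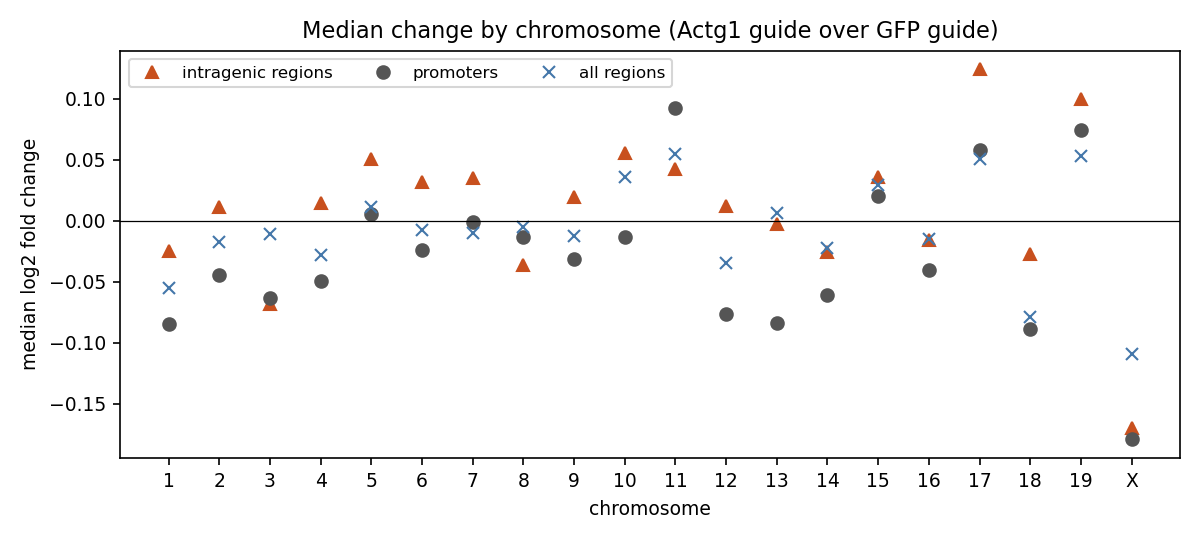
Median log2 fold change (Actg1 guide over GFP guide) per chromosome for intragenic regions, promoters and all regions. Chromosome X has the lowest median of all 3 classes, and chromosome 17 the highest of intragenic regions, at 0.12.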

How the data were processed

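ATAC-seq was measured in 6 libraries, 3 per guide RNA, from 25000 cells each. The authors deposited 1 table of signal per region, which from its values holds read counts normalized between libraries and rounded to whole numbers. Build mm10 and the tools Trimmomatic 0.39, STAR 2.7.10a, Picard 3.0.0, featureCounts and DESeq2 1.36.0 are named per the submitters' processing notes, with no role. The fraction of each region that overlaps the gene body and its distance to the TSS were taken as deposited by the authors. For the peak caller, the Tn5 offset and the annotation version, the sources used here give nothing. Because the values are rounded after scaling, no count model was fitted. Depth was estimated from the spacing of low values, and precision is limited by it where the signal is low.

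A region entered the test when its signal reached 10 in 3 libraries or more; tests ran on log2(signal + 1) with limma 3.58.1 (R 4.3.3, mean-variance trend) over all 61327 regions, with Benjamini-Hochberg adjustment at 0.05. A fold change on this scale understates the change of low regions. GFP guide replicates 1 and 2 were averaged into 1 sample. For pairs, the log2 difference between the intragenic region and the promoter nearest the TSS was fitted in the same way over all pairs, with the trend on the lower of both mean levels. Both fits were run on simulated libraries in which no or few regions were raised and none fell. That setting is unlike these data, where many regions were called in both directions, so it does not vouch for the calls. Tables were joined with Python 3.11.15, pandas 2.3.3 and NumPy 2.4.6. Start windows came from RefSeq tables, and exon and intron annotation was not used here. One named region of the actin list is not reported here.

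Named genes were, among called regions with a mean signal of at least 50, groups that did not overlap and 1 region per gene, the 12 largest rises and 12 largest falls; the 8 highest signals per kb; the 8 largest called pair differences in each direction with a mean signal of at least 50 in both regions; up to 4 regions per gene list, called ones with the highest signal first; and the 6 genes with the most regions. The members and the 22 lists were chosen with earlier results of these data known. Alternatives were a pseudocount of 5, no filter, cyclic loess scaling, 6 separate libraries with and without a replicate block, another promoter choice, a distance of at least 2000 bp and leaving out each library.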

Additional observations from a re-analysis of the deposited data

How the results depend on the processing

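Leaving out GFP guide replicate 3 lowered the counts to 302 regions higher and 192 lower and to 134 and 58 pair differences, since it leaves the control group with 1 sample. Over all 6 omissions the regions ranged from 302 to 539 higher and 192 to 425 lower, the pairs from 134 to 285 and 58 to 173, the difference in share of signal from 0.0381 to 0.0641 and that in median log2 ratio from 0.0703 to 0.0914. With regions at least 2000 bp from the TSS, 774 pairs entered instead of 1361, and 164 differences were higher. The share called in either direction was then 38.2%, against 32.3% over all pairs. Same-numbered libraries shared only a number (correlations of deviations 0.0252, 0.0138 and 0.0161, each the highest for its library). With a replicate block, 611 and 505 regions and 328 and 211 pairs were called, against 598 and 487 and 330 and 214 for 6 separate libraries without it. No other setting moved these counts by over 1.5 times. Regions of low signal limit the calls: under a signal of 50, 35.1% of regions without a RefSeq start were called.

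Some uncalled regions near 0 changed sign, and the cause was not tested. After cyclic loess scaling these were Mnt (0.00188), Cnot6l (0.0232) and Mmp14 at 3809 bp (0.0262), which was at 0.0152 after chromosome medians were removed. Over the omissions of single libraries, Dnaja3 ranged from -0.0117 to 0.0405, Klf10 from -0.109 to 0.00175, Nupr1 at 2613 bp from -0.0644 to 0.00977, Cnot6l from -0.0324 to 0.0292, Upf1 from -0.252 to 0.11, Tnni1 from -0.158 to 0.0256 and Krt19 from -0.0158 to 0.0938. Plin1 at 3510 bp ranged from -0.119 to 0.232, Furin from -0.0889 to 0.0591 at 1104 bp and from -0.0479 to 0.119 at 2643 bp, Csrnp1 from -0.00177 to 0.0551, Ube2g2 at 1065 bp from -0.218 to 0.114 and Mmp14 at 3809 bp from -0.0429 to 0.0376.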

Other observations

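Intragenic regions were split by whether their gene had a promoter region in the table. With one, 300 of 1368 tested regions were higher and 236 lower, and 81 changed at least 2-fold. Without one, 241 of 1190 were higher and 202 lower, and 142 changed at least 2-fold. When GFP guide replicate 3 was left out, the counts were 161 and 116 in the first class and 141 and 76 in the second. The median signal was 80.2 with a promoter region and 65.7 without. Regions of coding genes over 1000 bp from the TSS that were not wholly inside the gene had 619 higher and 367 lower of 2500 tested, with a median log2 fold change of 0.08. No test of these differences was made.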
